A study of Mus musculus with 52 samples.

Results

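The bone marrow of 6-week-old NeuT+ mice was set against that of NeuT- mice of the same age, 9 arrays against 9, which were 18 of the 52 arrays of the series. The members were taken by sample title alone, and no measured value chose them. NeuT+ mice were BALB/c females that carry NeuT, an activated form of the rat Erbb2 (neu) oncogene, under the promoter of the mouse mammary tumor virus (MMTV). NeuT- mice were BALB/c females too, age-matched siblings without the transgene. The other arrays held NeuT+ and NeuT- marrow of 12 weeks (18 arrays) and 24 weeks (11 arrays) and 5 arrays of a reference RNA labelled only as such. The MMTV promoter is active mainly in the mammary epithelium, so the marrow was studied as a tissue remote from the lesion. Total RNA of each marrow was hybridised to 1 bead array carrying 45281 probes.

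In both genotypes 3 mice each had an animal number beginning with 12, 14 and 17. The labels do not say what these number series stand for. The tumor burden label, which names no unit, was filled in for 6 NeuT+ mice, with 3 at 0 and 3 above 0 (8615, 54824 and 122315), and for 6 NeuT- mice, all at 0. The mice of series 17 had none. The grade label read mild or moderate dysplasia for 5 of those 6 NeuT- mice, although they lack the transgene, and the grade was not used here.

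Marrow makes the cells of the blood from stem cells, with granulocyte precursors, erythroblasts and developing B cells as its main populations, held in a stroma of reticular, bone-forming and vessel cells. Mammary tumors are known to act on the marrow at a distance through cytokines that shift its output toward myeloid cells. Peg3 (paternally expressed gene 3) is an imprinted gene, active from the copy inherited from the father alone, that encodes a large zinc finger protein. In mice it is known for roles in growth, maternal behaviour and p53-linked apoptosis.

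The 18 arrays showed the profile of whole marrow. Mpo and Elane, enzymes of the primary granules of neutrophil precursors, had mean log2 levels of 15.89 and 15.47 in NeuT+ mice and 15.91 and 15.53 in NeuT- mice. Ltf, a secondary granule protein of later neutrophils, stood at 15.95 in both. Of 14 mammary epithelial markers, 3 were detected on at least 1 of the 18 arrays, namely Cdh1, Esr1 and Ltf, the neutrophil gene just named. The keratins Krt8, Krt18, Krt14 and Krt5, Epcam, the caseins, Wap and Lalba were detected on none. Detected means a detection p under 0.01 against the array's negative controls. NeuT+ arrays had 15168 to 16820 detected probes (median 15765) and NeuT- arrays had 15210 to 16974 (median 15662).

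Arrays of NeuT- replicates 4 and 8 stood apart. Their correlations with the mean of the other 17 arrays were 0.985 and 0.982, against 0.991 to 0.996 for the rest, and their quality weights in limma were 0.153 and 0.316, against 0.592 to 3.10. Calls that rest on these 2 arrays are given with and without them, an alternative chosen after seeing the data. Single differences of at least 0.1 log2 units that moved by over 1.5 times without them are given both ways where they are printed, and values nearer 0 are given only with them. No pair of arrays held identical values. Every array came from its own mouse, so the p-values reflect the variation among mice, and precision is limited by having 9 arrays a group. Bulk RNA cannot tell fewer cells of a type from less RNA per cell.

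Genotype was compared across 11309 genes, each represented by its brightest probe, with limma on log2 levels and with the number series as a block. Of these genes 1 passed an adjusted p of 0.05 at 6 weeks (0.00884%), and it was Peg3, which rose. An unadjusted p under 0.05 was reached by 718 genes, 340 higher in NeuT+ (3.01%) and 378 lower (3.34%). Non-overlapping groups, with all 9 NeuT+ values above all 9 NeuT- values, were found for 2 genes (0.0177%), Peg3 and Trp53i11, and the opposite order for 0 genes (0%).

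The sequence upstream of Peg3 is shown because this gene carries the one called difference. The window runs from 250 bases before to 50 bases after the annotated start in RefSeq, on the minus strand of chr7:6730370-6730669 in GRCm38.p6, and is printed in the direction of transcription. Capitals mark the letters TGACGTCA, a motif of the CREB and ATF factors, and CCAAT, which occurs on the opposite strand and so reads ATTGG.
Peg3 promoter: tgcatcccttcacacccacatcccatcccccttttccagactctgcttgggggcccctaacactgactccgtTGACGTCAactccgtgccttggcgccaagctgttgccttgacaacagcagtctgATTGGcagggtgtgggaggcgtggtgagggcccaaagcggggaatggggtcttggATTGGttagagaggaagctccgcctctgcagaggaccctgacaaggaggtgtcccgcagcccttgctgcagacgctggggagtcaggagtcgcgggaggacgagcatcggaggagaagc
TGACGTCA began 178 bases before the start, and it is found in 588 of 32851 promoter windows of the same length (1.79%, its reverse complement being the same letters). CCAAT, searched on both strands, was found at 2 places here, and 11.7% of windows held at least 2 matches. The window held 13 CG dinucleotides, the letters methylated in imprinting, against a median of 7. The arrays measure RNA alone, so methylation and factor binding at this window were not measured.

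Peg3 was bright in every NeuT+ marrow and near background in every NeuT- marrow. Its brightest probe gave raw signals of 5069.7, 3740.0, 4942.1, 5048.3, 5867.0, 4776.2, 4315.0, 2090.2 and 3008.1 in NeuT+ replicates 1 to 9. The same probe gave 199.6, 144.9, 165.2, 173.7, 125.7, 180.4, 150.5, 130.0 and 162.1 in NeuT- replicates 1 to 9. The lowest NeuT+ mouse, replicate 8, thus lay far above the highest NeuT- mouse, replicate 1. Detection was reached in 9 of 9 NeuT+ mice, against 2 of 9 NeuT- mice. Mean log2 levels were 11.94 ± 0.628 in NeuT+ and 5.91 ± 0.408 in NeuT- mice (SD, n = 9 each). The fitted difference was 6.03 ± 0.153 log2 units (SE; 95% confidence interval 5.72 to 6.34), or 65.2-fold, with a limma adjusted p of 1.07e-29. Since 7 of 9 NeuT- values were not above background, that fold is set against a floor and not against a measured level.

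**Figure D1:**
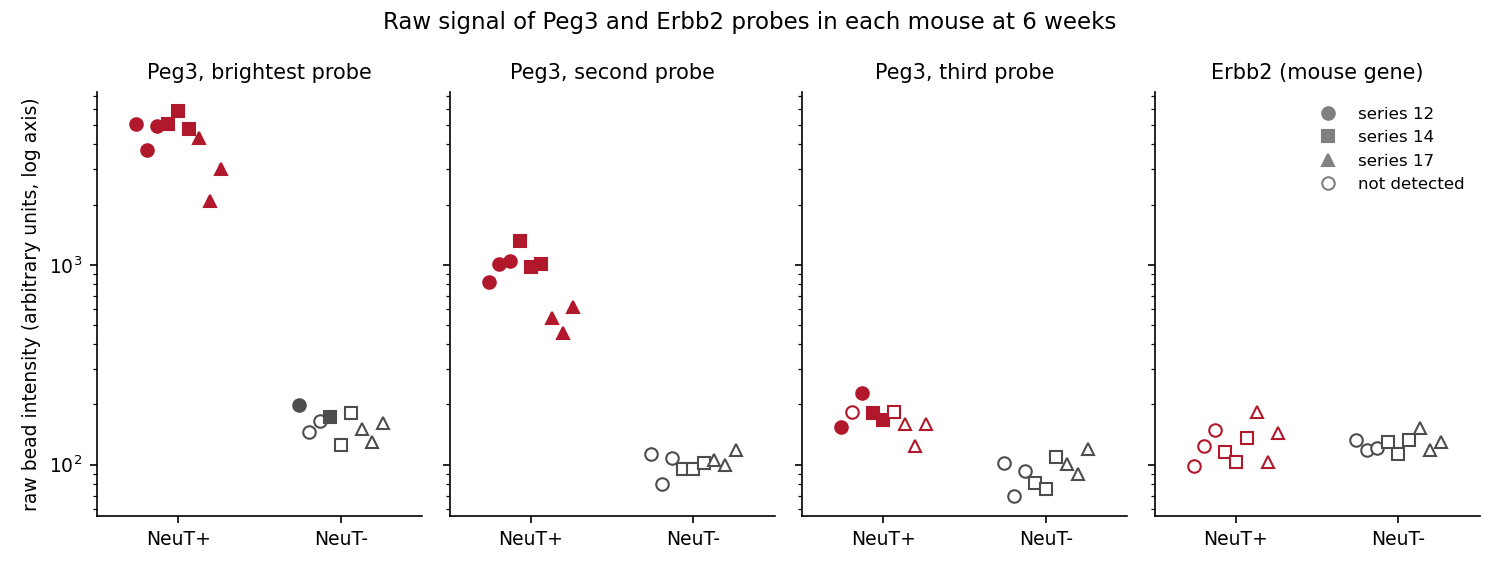
Raw bead intensity (log axis, arbitrary units) of 3 Peg3 probes and of the Erbb2 probe in each mouse at 6 weeks, NeuT+ in red and NeuT- in grey; the symbol gives the number series and open symbols were not detected. On the brightest Peg3 probe NeuT+ mice ran from 2090.2 to 5867.0 and NeuT- mice from 125.7 to 199.6, while the Erbb2 probe was detected in no mouse of either genotype.

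The other Peg3 probes differed in brightness. A second probe was detected in 9 of 9 NeuT+ mice, with raw signals of 454.8 to 1308.2 (median 973.5), and in 0 of 9 NeuT- mice, with 80.1 to 117.7 (median 102.1). It was at least 9.05-fold higher in NeuT+ (limma adjusted p = 5.35e-22 over 21592 probes). This bound sets the NeuT+ mean against the lowest detected signal of each NeuT- array. Another, dimmer probe was detected in 4 of 9 NeuT+ mice and 0 of 9 NeuT- mice, at 123.6 to 227.4 against 69.3 to 119.7, without overlap (adjusted p = 1.33e-08), and no fold is given because its bound was under 1. The last of the 4 probes was detected in no mouse. Of the 21592 detected probes, 3367 of them without a gene name, these 3 Peg3 probes alone passed.

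Peg3 also varied among NeuT+ mice. Within series 12, 14 and 17 the difference between genotypes was 6.08, 6.39 and 5.60 log2 units (n = 3 and 3 each). In series 17 no NeuT- mouse was detected, which makes the fold there at least 29.9. The mean log2 level of NeuT+ mice was 11.15 in series 17, against 12.35 in series 12 and 12.32 in series 14, and the 3 lowest second-probe signals also belonged to series 17. The 3 NeuT+ mice with a tumor burden above 0 had raw Peg3 signals of 3740.0, 5048.3 and 5867.0, and the 3 with a burden of 0 had 5069.7, 4942.1 and 4776.2. These ranges overlapped. Genotype held 97.3% of the variance of Peg3 over the 18 arrays and series 1.86%. The reference RNA had no Peg3 signal above background on any of its 5 arrays.

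Among the genes around Peg3 none closer than 7 genes away was measured, and those measured showed no shift of that kind. Zim1 and Usp29, imprinted neighbours within the Peg3 domain, were not well above background in any 6-week mouse, on 1 and 3 probes. The 5 nearest measured genes on each side in the RefSeq order were Zfp28, Zfp667, Zfp444, Zfp787, Vmn1r65, Aurkc, Zfp954, Clcn4, Vmn1r84 and Zfp551, mostly zinc finger genes and up to 213 genes away, and none of the 10 passed. Aurkc, a germ cell kinase and the nearest measured gene on the Usp29 side, had the highest difference among them (0.35 ± 0.153 log2 units, limma adjusted p = 0.743), and its probe was above background in 3 of 9 NeuT+ mice, against 2 of 9 NeuT- mice. Zfp954 had the lowest, -0.17 ± 0.0821, which was -0.09 ± 0.0820 without the 2 arrays that stood apart. Of the 10 genes only Zfp28, Zfp787 and Zfp954 were detected in 9 of 9 mice of both genotypes, and Zfp551 was detected in none.

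Other imprinted genes were measured beside it. Of 42 listed, 21 were tested and Peg3 was the single call. Their differences had a median of -0.001 log2 units, against -0.006 over all genes, with 10 above 0 and 11 below. Igf2r, the maternally expressed receptor that clears insulin-like growth factor 2, stood at -0.11 ± 0.0778, and at -0.07 ± 0.0755 without the 2 arrays that stood apart. Slc22a18, an imprinted transporter gene, had the lowest difference of the list at -0.21 ± 0.140, with 1 of 9 mice detected in each genotype. Igf2, Meg3, Peg10, Plagl1 and Nnat were detected in no 6-week mouse.

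Proteins known to work with Peg3 were coded by 12 listed genes, of which 8 were tested and 0 passed (median -0.039, 2 above 0). Siah1a and Siah1b, ubiquitin ligases that bind Peg3 in apoptosis, stood at -0.04 ± 0.0854 and -0.03 ± 0.0782. Siah2 had the highest difference, 0.20 ± 0.116, and Traf2, an adaptor of TNF receptors, the lowest, -0.08 ± 0.145.

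The transgene itself could not be checked on this array. The Erbb2 probe, designed on the mouse gene, was detected in 0 of 18 mice, with raw signals of 98.4 to 182.6 in NeuT+ and 113.5 to 152.4 in NeuT- mice, which overlapped. It was detected on all 5 reference arrays (mean 580.0 ± 70.8 SD). Of 20 listed ERBB receptors, ligands and adaptors, 11 were tested and 0 passed, with 3 above 0 and 8 below (median -0.057). Of these 11, 7 were detected in at least 1 mouse and 4 in all 18, so the signs rest partly on background. The median was -0.006 without the 2 arrays that stood apart. Nrg4, an ERBB4 ligand, stood at -0.14 ± 0.0936, the lowest of the list. The receptor gene Egfr was not well above background in any mouse.

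Apart from Peg3, differences at 6 weeks were small. The median size of a difference was 0.0695 log2 units and the 95th percentile 0.25. In all 19 genes differed by more than 1.5-fold and 1 by more than 2-fold, namely Peg3. The 95% confidence interval lay wholly within 1.5-fold for 10821 genes (95.7%) and within 2-fold for 11278 (99.7%). These counts include genes at background, since 7912 of the tested genes were detected in all 18 mice and 1377 in none. Where a gene was not detected, a narrow interval describes background signal and does not bound a change in its RNA. For 31 genes the interval reached 2-fold, so a change of that size was not bounded for them. Measured in the same fit, 17 genes passed at 12 weeks and 1955 at 24 weeks, with 50 and 662 over 1.5-fold.

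**Figure D2:**
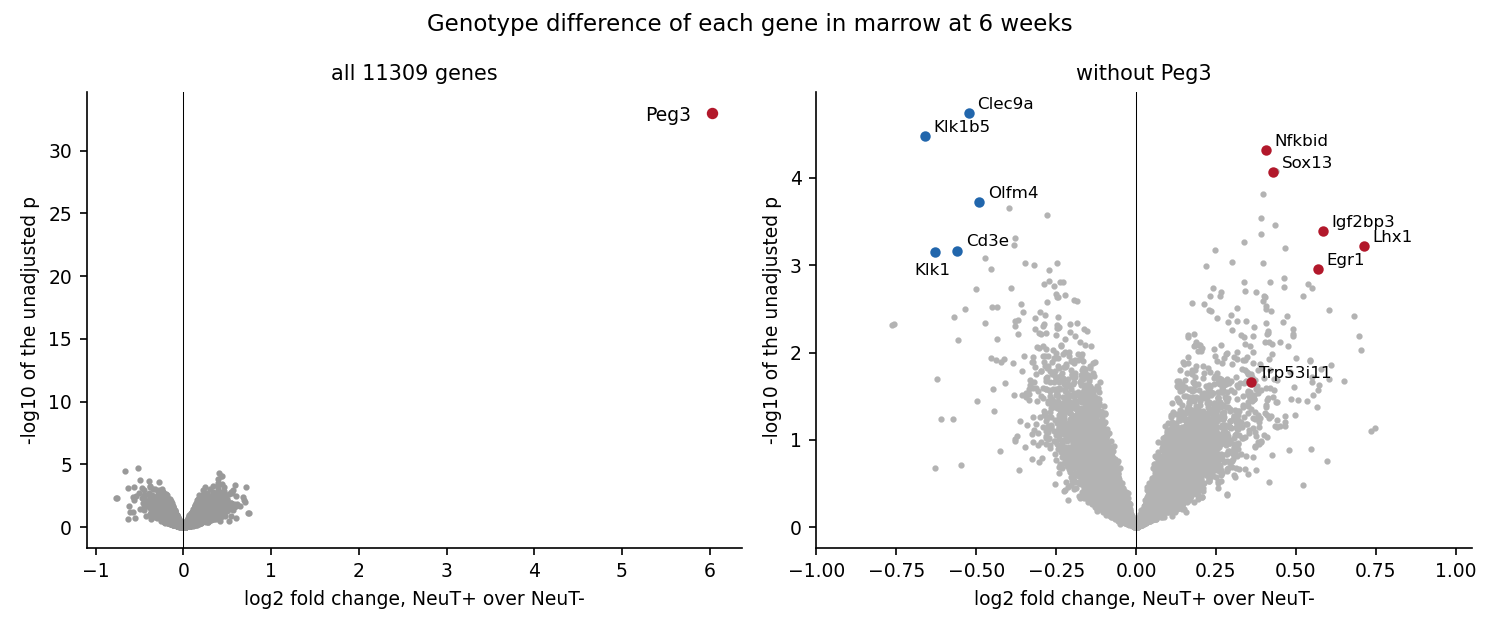
Each dot is a gene at 6 weeks, with its log2 fold change of NeuT+ over NeuT- on the x axis and -log10 of the unadjusted p on the y axis; the left panel holds all 11309 genes and the right panel all but Peg3, with 11 genes named. Peg3 lies alone at 6.03 log2 units, and no other gene lies beyond 1 log2 unit.

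The genes of smallest p below Peg3 were taken as the 10 in each direction detected in at least 5 of 9 mice of the group with the higher mean. None passed in the main fit, and their values are a description. With arrays weighted by quality, Clec9a, Klk1b5, Klk1, Spint1, Cd3e, Egr1, Nfkbid, Sox13 and Igf2bp3 among them passed.

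Clec9a, a receptor for dead cells on the dendritic cells that cross-present antigen, had the smallest p of them. Log2 levels in NeuT+ mice ran from 5.69 to 6.31 (median 5.88) and in NeuT- mice from 6.09 to 6.72 (median 6.45). Detection was reached in 1 of 9 NeuT+ mice, against 8 of 9 NeuT- mice, and the groups overlapped in 3 mice, NeuT+ replicate 8 lying above NeuT- replicates 5 and 6. The difference was -0.52 ± 0.107 (limma adjusted p = 0.101). Its adjusted p was 0.0480 without NeuT- replicate 6, 0.0341 without NeuT+ replicate 8 and 0.0430 with series as a random block, and over all settings it ran from 0.00947 to 0.990. Within series 12, 14 and 17 the difference was -0.59, -0.35 and -0.63. Of the other 5 dendritic cell genes tested, Tcf4, a regulator of plasmacytoid dendritic cells and of B cells, had the highest difference, 0.18 ± 0.0654. With Clec9a included, 3 of the 6 tested members of the list stood above 0 (median 0.002).

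Genes of the kallikrein family of serine proteases were next. Klk1b5 had log2 levels of 7.37 to 8.22 in NeuT+ (median 7.83) and 7.43 to 9.07 in NeuT- mice (median 8.44). All NeuT- mice but replicates 2 and 4 lay above every NeuT+ mouse. The difference was -0.66 ± 0.141 (adjusted p = 0.125), and -0.77, -0.40 and -0.81 within series 12, 14 and 17. Klk1 stood at -0.63 ± 0.171 and Klk1b26 at -0.54 ± 0.171. The other 5 kallikrein genes tested varied in size and sign. Klk1b27 stood at -0.29 ± 0.143 (0.26 within series 14, and -0.43 without the 2 arrays that stood apart), Klk4 at -0.41 ± 0.172, Klk1b21 at -0.06 ± 0.119, Klk8 at 0.11 ± 0.124 (-0.05 without those arrays) and Klk10, detected in no mouse, at 0.20 ± 0.0751. Klk1b5 passed without NeuT- replicate 4 alone (-0.77, adjusted p = 0.00479). Without both arrays that stood apart 3 genes passed, Peg3, Klk1b5 (-0.79, adjusted p = 0.00661) and Klk1 (-0.85, adjusted p = 0.0154). Klk1 and the Klk1b genes are near-identical copies whose probes can bind each other's RNA, so their values are uncertain and are not separate results. The kallikreins other than Klk1b5 and Klk1 were added after their values were seen.

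Among the other 8 with lower NeuT+ means, Cd3e, a chain of the T-cell receptor complex, had log2 levels of 6.29 to 7.15 in NeuT+ (median 6.76) and 6.63 to 7.88 in NeuT- mice (median 7.31), overlapping, and a difference of -0.56 ± 0.152 (adjusted p = 0.361). Cd3d, another chain of the complex, stood at 0.17 ± 0.108, and at 0.07 ± 0.0816 without the 2 arrays that stood apart; its median level was 12.02 in NeuT+ and 12.06 in NeuT- mice. Olfm4, a neutrophil granule glycoprotein, stood at -0.49 ± 0.119, Trf, the iron carrier transferrin, at -0.40 ± 0.0977, and Pdia3, a folding enzyme of the endoplasmic reticulum, at -0.28 ± 0.0700. Spint1 (-0.38), Tbc1d9 (-0.38) and Gyg, the primer of glycogen synthesis (-0.35), completed the 10 with Klk1.

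Of the 10 with higher NeuT+ means, Nfkbid, an inhibitor-type protein that steers NF-kB, had log2 levels of 10.999 to 11.715 in NeuT+ (median 11.34) and 10.72 to 11.28 in NeuT- mice (median 10.94). These ranges overlapped, and the difference was 0.41 ± 0.0896 (adjusted p = 0.137). Within series 12, 14 and 17 it was 0.55, 0.36 and 0.31. Sox13, a transcription factor of lymphoid and other cells, stood at 0.43 ± 0.0982, Lhx1, a homeobox gene, at 0.71 ± 0.191, and Mex3a, an RNA-binding protein gene, at 0.39 ± 0.102. Egr1, an immediate early transcription factor, stood at 0.57 ± 0.162, and Srf, which drives immediate early genes, at 0.25 ± 0.0670, though the other Srf probe stood at -0.25. Igf2bp3, a fetal-type RNA-binding protein gene, stood at 0.58 ± 0.151 on its brightest probe, while its 3 probes ran from -0.04 to 0.65. Eva1b (0.34), Slc27a1, a fatty acid transporter (0.30), and Acot1, an acyl-CoA thioesterase (0.46), completed the 10.

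**Figure D3:**
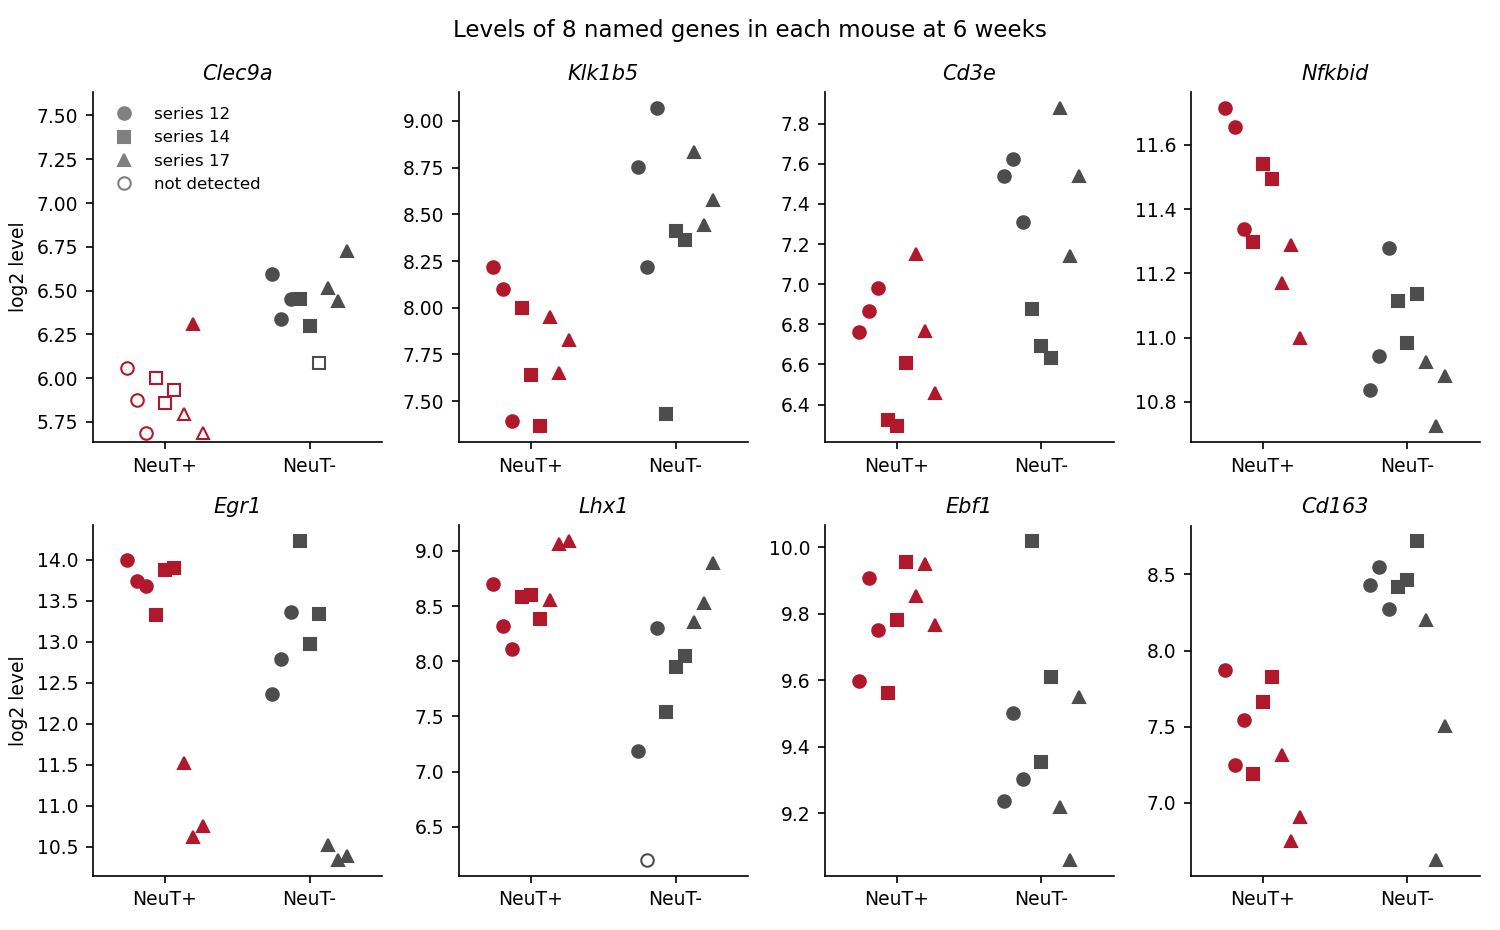
Log2 level of 8 genes in each mouse at 6 weeks, NeuT+ in red on the left and NeuT- in grey on the right of each panel, with the number series as the symbol and open symbols not detected. Clec9a was above background in 1 of 9 NeuT+ mice, against 8 of 9 NeuT- mice, and for Egr1 the 3 mice of series 17 of both genotypes lie below all others.

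Trp53i11, a p53-inducible gene, was singled out after its values were seen, because its groups did not overlap. Log2 levels were 8.43 to 8.83 in NeuT+ and 7.98 to 8.40 in NeuT- mice. The difference was 0.36 ± 0.151 (adjusted p = 0.740), in the fit that all 47 mice share. With the 18 arrays of 6 weeks alone the SE was 0.0684 and the adjusted p 0.0920.

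Gene lists of marrow cells and programs were described by their counts and medians, beside 47.5% of all genes with a difference above 0 and a median of -0.006. Apart from Peg3 no member of any of the 32 lists passed. Counts at an unadjusted p under 0.05 are to be read against 3.01% of all genes higher and 3.34% lower. The lists were chosen with earlier results of these data known, so their counts are a description and not a test.

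B-cell development genes stood above 0 in all 12 of 12 tested members (of 16 listed), with a median of 0.26 log2 units. Of them 3 had an unadjusted p under 0.05, all higher. Rag1, which cuts DNA to assemble antigen receptor genes, had log2 levels of 9.28 to 10.57 in NeuT+ (median 9.62) and 8.13 to 9.98 in NeuT- mice (median 9.15) and a difference of 0.57 ± 0.248 (adjusted p = 0.743). Ebf1, a transcription factor that commits cells to the B lineage, had 9.56 to 9.96 in NeuT+ (median 9.78) and 9.06 to 10.02 in NeuT- mice (median 9.35), a difference of 0.36 ± 0.151. NeuT- replicates 4 and 6 lay within or above the NeuT+ range and the other 7 NeuT- mice below it. Cd79b, which signals for the B-cell receptor, stood at 0.25 ± 0.183, and Dntt, which adds bases at receptor gene joins, was the lowest member at 0.06 ± 0.220. The mean level of the 12 members ran from 11.58 to 11.99 in NeuT+ and from 11.01 to 11.68 in NeuT- mice. The median was 0.21, 0.08 and 0.46 within series 12, 14 and 17, and 0.20 without the 2 arrays that stood apart.

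Other lymphoid lists lay near 0. Of 7 tested T and NK cell genes 2 stood above 0 (median -0.029). Il7r, the receptor of interleukin 7, was their highest at 0.20 ± 0.186. Plasma cell genes had 4 of 8 above 0 (median -0.020), with Irf4, a transcription factor of plasma cells and activated B cells, at 0.40 ± 0.199.

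Granulocyte genes were level between genotypes. Promyelocyte granule genes had 2 of 8 above 0 (median -0.061) and neutrophil maturation genes 5 of 13 (median -0.005). None of these 21 had an unadjusted p under 0.05. Their members ran from -0.16 to 0.16 over both lists. Ltf stood at 0.001 ± 0.0323 and Camp, the cathelicidin gene, at -0.004 ± 0.0555, although both are near the top of the signal scale, where differences are compressed. Csf3r, the receptor of G-CSF, stood at 0.16 ± 0.146 and Padi4, which citrullinates histones, at -0.13 ± 0.128 (-0.04 ± 0.126 without the 2 arrays that stood apart). The genes of the myeloid suppressor list, which are known to be high in suppressive myeloid cells of tumor-bearing mice, had 5 of 11 above 0 (median -0.005).

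Monocyte genes were split. Of 7 tested, 1 was higher and 3 were lower at an unadjusted p under 0.05. Ccr2, the receptor by which monocytes leave the marrow, had log2 levels of 7.29 to 8.06 in NeuT+ (median 7.65) and 7.37 to 9.16 in NeuT- mice (median 7.94), and stood at -0.42 ± 0.162. Klf4, a transcription factor of monocytes and also an immediate early type gene, stood at 0.50 ± 0.188. Csf1r, the receptor of M-CSF, stood at -0.03 ± 0.129. The list median was -0.06, -0.02 and -0.37 within series 12, 14 and 17.

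Resident macrophage genes had 4 of 12 above 0 (median -0.046). Cd163, the scavenger receptor for haemoglobin, had the lowest difference of all their members, -0.76 ± 0.256 (adjusted p = 0.555). Its log2 levels were 6.75 to 7.88 in NeuT+ (median 7.31) and 6.63 to 8.72 in NeuT- mice (median 8.42). In series 12 and 14 every NeuT+ mouse lay below every NeuT- mouse, and in series 17 the groups overlapped. Such an order among 3 and 3 mice is a description only, and its share over all genes is not given here. Vcam1, which holds progenitors in the marrow, and Adgre1, the F4/80 antigen, stood at -0.03 ± 0.0975 and 0.15 ± 0.197, the second being 0.03 ± 0.210 without the 2 arrays that stood apart. The list median was -0.40, -0.04 and 0.26 within series 12, 14 and 17. MHC class II genes had 3 of 8 above 0 (median -0.008), with H2-Ab1 at 0.003 ± 0.115 and Cd74, the invariant chain, at 0.05 ± 0.106.

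Erythroid genes stood below 0 in 8 of 9 tested members (median -0.105), with 0 at an unadjusted p under 0.05. Klf1, the master regulator of red cell genes, stood at 0.06 ± 0.180, Alas2, the first enzyme of haem synthesis in red cells, at -0.12 ± 0.247, and Car2, a carbonic anhydrase, at -0.15 ± 0.204 (-0.09 ± 0.216 without the 2 arrays that stood apart). Cell cycle genes stood below 0 in 12 of 13 (median -0.079), again with 0 at an unadjusted p under 0.05. Top2a, the topoisomerase of dividing cells, stood at -0.12 ± 0.0612, and at -0.06 ± 0.0528 without the 2 arrays that stood apart. Cdk1, the mitotic kinase, stood at -0.08 ± 0.0674. Medians within series 12, 14 and 17 were -0.08, -0.10 and -0.07 for cell cycle genes and -0.05, -0.04 and -0.08 for erythroid genes.

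Osteoblast genes had the highest list median, 0.48 log2 units, with all 6 of 6 tested members (of 9 listed) above 0 and 2 at an unadjusted p under 0.05. Bglap, which encodes osteocalcin, had log2 levels of 8.88 to 12.50 in NeuT+ (median 11.14) and 8.90 to 11.84 in NeuT- mice (median 10.43). These ranges overlapped almost wholly, and the difference was 0.74 ± 0.408. Sp7, a transcription factor of bone formation, stood at 0.36 ± 0.154, with 4 of 9 NeuT+ and 0 of 9 NeuT- mice above background. Alpl, alkaline phosphatase, stood at 0.17 ± 0.122. The list median was 0.11, 0.45 and 0.79 within series 12, 14 and 17, and 0.28 without NeuT+ replicate 9. Stromal genes had 7 of 9 above 0 (median 0.169), with Cxcl12, the chemokine that retains stem cells, at 0.17 ± 0.228 and Col1a1, a collagen of bone that both lists hold, at 0.60 ± 0.432. Their median was -0.11, 0.05 and 0.83 within series 12, 14 and 17.

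Cartilage and skeletal muscle genes mark tissue that can be carried over at dissection. Of 7 cartilage genes 3 were tested, with a median of 0.10 that was 0.03, 0.21 and 0.04 within series 12, 14 and 17, and 1 of the 7 was detected in any 6-week mouse. Mean log2 levels of the osteoblast and cartilage lists were 9.31 and 6.53 in NeuT+ replicate 9 and 8.29 and 6.45 in NeuT- replicate 1. They were 6.63 and 5.23 in NeuT+ replicate 6 and 6.66 and 5.13 in NeuT- replicate 2. These mice were picked for high and low osteoblast levels, and the 2 lists were not compared over all mice. Of 8 listed muscle genes 3 were tested, with a median of 0.27 that was -0.11, 0.13 and 0.98 within series 12, 14 and 17. Acta1, the actin of skeletal muscle, was above background in 2 of 9 NeuT+ mice, against 0 of 9 NeuT- mice, and was the one member with an unadjusted p under 0.05, higher. The mean muscle level was 7.01 in NeuT+ replicate 7 and 7.35 in NeuT+ replicate 8, against 5.91 to 6.10 in the other 7 NeuT+ mice and 5.60 to 6.12 in NeuT- mice. NeuT+ replicate 9, highest in osteoblast genes, had a muscle level of 6.10. NeuT+ replicate 8, highest in muscle genes, had the next highest osteoblast level, 8.63. Whether muscle and bone levels ran together over all mice was not tested. Myh1, Myh4, Tnnt3, Tnnc2 and Ckm were detected in no mouse. The part of carried-over tissue in the osteoblast and stromal values was not tested.

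Immediate early genes, which cells switch on within minutes of a stimulus, stood above 0 in 16 of 17 tested members (median 0.32), and 6 had an unadjusted p under 0.05, all higher. Fosb, a partner in AP-1, had log2 levels of 8.998 to 13.11 in NeuT+ (median 12.80) and 8.42 to 12.56 in NeuT- mice (median 11.82), overlapping, and stood at 0.65 ± 0.271. Fos stood at 0.33 ± 0.113 and Myc, the lowest member, at -0.01 ± 0.114. The list median was 0.56, 0.14 and 0.03 within series 12, 14 and 17. Inflammatory cytokine and NF-kB genes had 15 of 18 above 0 (median 0.165), with 5 at an unadjusted p under 0.05, all higher. Cxcl2, a chemokine that attracts neutrophils, stood at 0.68 ± 0.222 (adjusted p = 0.535), Il1b at 0.46 ± 0.249, Tnf at 0.16 ± 0.155 (0.30 ± 0.156 without the 2 arrays that stood apart) and Il1r2, which captures interleukin 1 without signalling, at -0.16 ± 0.174. The list median was 0.48, 0.09 and 0.14 within series 12, 14 and 17.

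Heat shock genes, which respond to tissue handling, had 1 of 6 above 0 (median -0.120), with Hspa1a at -0.63 ± 0.497. Their median was -0.29, -0.32 and 0.11 within series 12, 14 and 17, and ran from -0.35 without series 17 to -0.002 without series 14. NeuT- replicate 3 had a mean level of 11.31, against 9.64 and 9.68 in the other NeuT- mice of its series. Interferon response genes had 1 of 11 above 0 (median -0.099). Irf7, a regulator of interferon genes, stood at -0.12 ± 0.155 and Isg15, a ubiquitin-like protein, at -0.07 ± 0.169. Their median was 0.01, 0.07 and -0.52 within series 12, 14 and 17.

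The remaining lists had no member called either. Their medians were 0.142 for megakaryocyte, -0.012 for stem and progenitor, 0.047 for eosinophil, basophil and mast cell, -0.012 for osteoclast, 0.006 for endothelial, -0.065 for adipocyte, 0.039 for unfolded protein response, -0.054 for growth factor and receptor, and 0.009 for mammary genes.

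**Figure D4:**
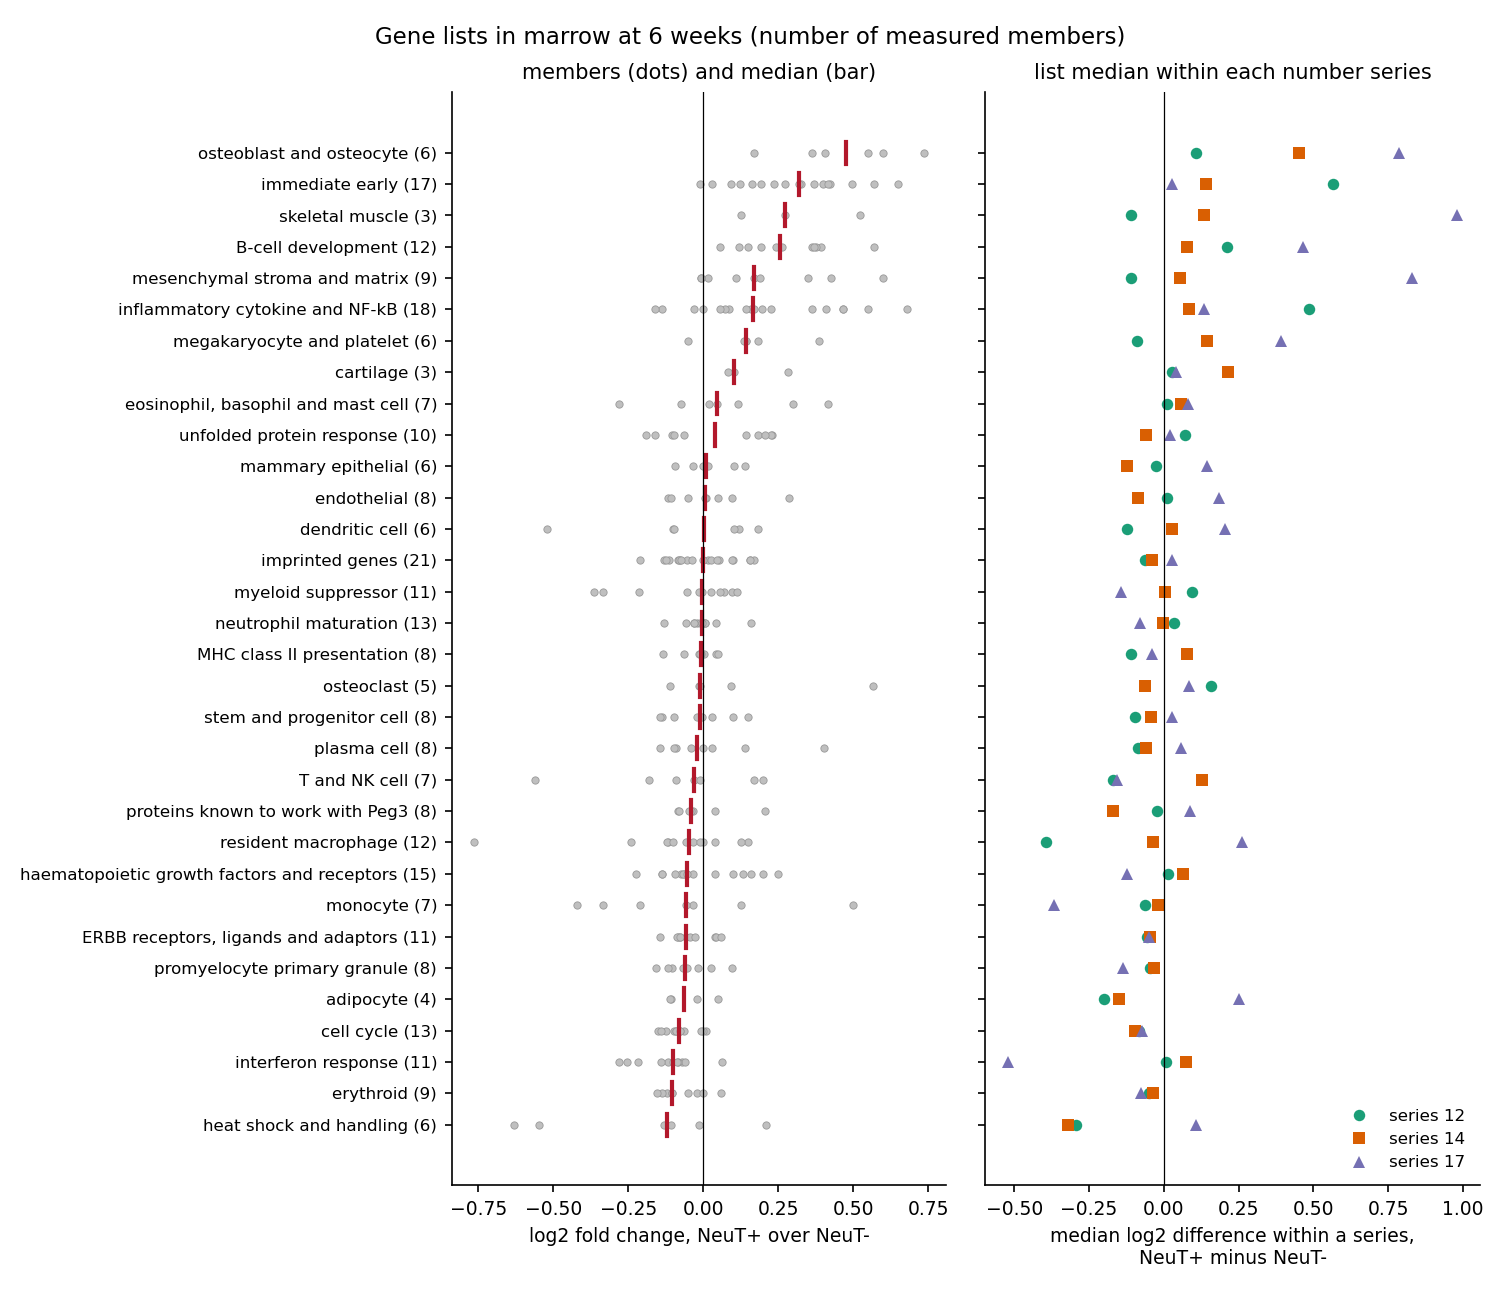
Left, log2 fold change of NeuT+ over NeuT- at 6 weeks of each tested member (dots; Peg3 is left out) and the median (bar) of 32 gene lists, with the number of tested members in brackets; right, the list median of the NeuT+ minus NeuT- difference within number series 12, 14 and 17. Osteoblast genes have the highest median (0.48), and the medians of stroma and skeletal muscle differ most between series, with series 17 at 0.83 and 0.98.

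Number series divided the 18 arrays more than genotype did. Series held 40.5% of the summed variance of the 11309 genes, against 11.8% of the degrees of freedom, and genotype held 5.65% against 5.88%, or 4.74% without Peg3. In all 16 of 18 arrays were closer to the mean of their own series than to those of the others, and 11 of 18 to the mean of their own genotype. Limma's moderated F test over series called 3265 genes (28.9%), of which 267 also had an unadjusted p under 0.05 for genotype. Cxcl2 had the largest F, with a difference of -3.4 log2 units in series 17 relative to series 12. Of the 17 immediate early genes 15 were called, with a median of -1.26 in series 17 relative to series 12, and of the 12 resident macrophage genes 11 were called, with a median of -0.59. Of the 12 B-cell genes 2 were called. An interaction of genotype and series, a test chosen after seeing the data, called 0 genes in limma, with 511 at an unadjusted p under 0.05. Each series held both genotypes in equal number, so the genotype differences above are taken within series.

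Genotype differences measured in separate series shared little across genes. The correlation of the differences over 11309 genes was 0.116 between series 12 and 14, 0.252 between 12 and 17 and 0.083 between 14 and 17. Without Peg3 these values were 0.028, 0.2 and 0.014. They are descriptions across genes, which are not independent replicates.

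The genotype difference at 6 weeks was then set against that at the later ages, in the same fit. The age groups were different mice, so no control was shared. Between 6 and 12 weeks 0 of 11309 genes differed in limma at an adjusted p of 0.05, with 598 at an unadjusted p under 0.05. The 5 genes of smallest p were Fam189a1, Dph2, Eva1b, Rora and H2ac8. Dph2, an enzyme of diphthamide synthesis, stood at 0.09 ± 0.0668 at 6 weeks and -0.32 ± 0.0674 at 12 weeks (adjusted p of the difference = 0.573). H2ac8, a histone gene, stood at 0.13 ± 0.152 at 6 weeks and -0.74 ± 0.154 at 12 weeks, and its 6-week difference was of the other sign, -0.10 ± 0.133, without the 2 arrays that stood apart. Fam189a1 and the nuclear receptor gene Rora were detected in at most 1 of 9 mice of either genotype at 6 weeks. Peg3 stood at 6.03 at 6 weeks and 6.33 at 12 weeks (adjusted p = 0.952).

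Between 6 and 24 weeks 1117 genes differed, 629 with the 6-week difference above the 24-week one (5.56%) and 488 below (4.32%). Peg3 was among them: the genotype difference was 6.03 ± 0.153 at 6 weeks and 4.63 ± 0.198 at 24 weeks, a difference of 1.39 ± 0.250 (adjusted p = 0.00034), with NeuT+ raw signals of 2090.2 to 5867.0 at 6 weeks and 729.4 to 4141.8 at 24 weeks. The 24-week NeuT+ mice were split by number series: the 2 of series 12 had log2 levels of 11.76 and 11.34 and the 4 of series 13 had 9.71 to 10.18, against 10.93 to 11.36 in the 6-week NeuT+ mice of series 17 and 12.16 to 12.72 in the other 6. No 6-week mouse belonged to series 13, so age and number series cannot be told apart for those 4 mice. Of the 12 B-cell genes 11 differed, all with 6 weeks above. Their median genotype difference was 0.26 at 6 weeks, -0.15 at 12 weeks and -1.43 at 24 weeks. Cd79b differed by 1.82 ± 0.301 (adjusted p = 0.000199). The 5 genes of smallest p were Traf3ip2, Tcf4, Nuak1, Apbb1 and Sox4, and all 5 had the 6-week difference on top. Traf3ip2, an adaptor of the interleukin 17 receptor, stood at 0.21 ± 0.110 at 6 weeks and -1.13 ± 0.143 at 24 weeks (adjusted p of the difference = 5.12e-05). Sox4, a transcription factor needed for B-cell development in mice, stood at 0.37 ± 0.162 and -1.41 ± 0.210. Tcf4 stood at 0.18 and -0.59, the kinase gene Nuak1 at 0.55 and -1.35, and Apbb1 at 0.36 and -1.30.

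Interferon response genes went the other way, with 6 of 11 differing, all with 6 weeks below. Their median was -0.10 at 6 weeks, 0.01 at 12 weeks and 0.89 at 24 weeks. Of the 12 resident macrophage genes 4 differed, all with 6 weeks below, Cd163 among them (-0.76 at 6 weeks and 0.68 at 24 weeks, adjusted p = 0.0222). Of the 9 erythroid genes 0 differed, although their median was -0.105 at 6 weeks and -0.762 at 24 weeks. Of the 17 immediate early genes 3 differed, with 6 weeks above. Without NeuT- replicate 1 of 24 weeks 264 genes passed in place of 1117. That mouse was the only NeuT- mouse of series 12 at 24 weeks. With series as a block, leaving it out also took the NeuT+ mice of that series and age out of the genotype contrast.

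**Figure D5:**
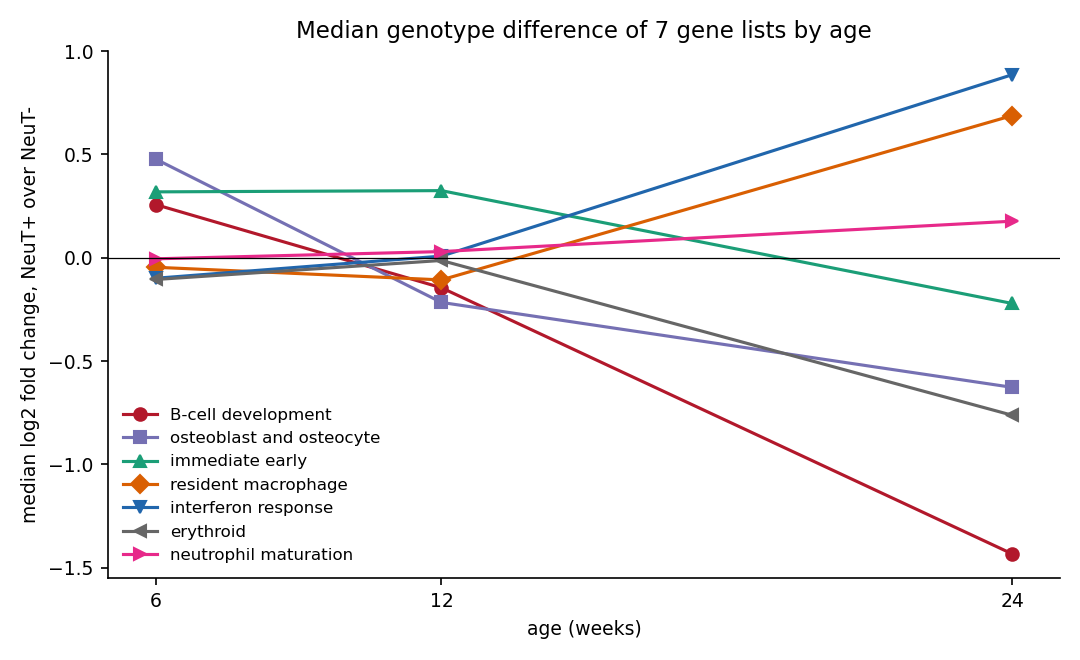
Median log2 fold change of NeuT+ over NeuT- of 7 gene lists at 6, 12 and 24 weeks; each age is a separate set of mice and the lines join medians only. At 6 weeks the medians lie between -0.11 and 0.48, and at 24 weeks B-cell development genes lie at -1.43 and interferon response genes at 0.89.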

How the data were processed

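Illumina bead arrays (mouseWG-6 v2.0) were hybridised with marrow RNA. The deposited raw intensity and detection p-value of each probe were exported with BeadStudio 3.3.8, as the series' design text states, and the authors also deposited normalized log2 values, used here as an alternative. The design text and the label protocol name different labelling kits (TotalPrep and DASL), and which was used is not settled here. Raw intensities of 52 arrays were corrected, quantile normalized and put on the log2 scale with neqc in limma 3.58.1 (R 4.3.3; offset 16). Of 45281 probes, 21592 had a detection p under 0.01 on at least 1 array, and 18225 of these had 1 gene symbol. Of 34885 probes with 1 symbol, 34807 were updated through Entrez numbers. A gene took its probe of highest mean, which left 11309 genes. All 47 mice were fitted in limma with a genotype effect for each age and number series within age as a block, and p-values were Benjamini-Hochberg adjusted at 0.05.

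Genes were named by a rule: those past the threshold, the 10 of smallest p in each direction detected in at least 5 of 9 mice of the higher group, Peg3 probes and 5 measured neighbours on each side, Erbb2, the first 2 and the extreme members of lists, and the 5 of smallest p between ages. The gene lists and the genes in them were chosen with earlier results of these data known. Scripts were tested on simulated data. Alternatives covered background, normalization, filter, probe choice, block, weights, arrays in the fit and each mouse left out.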

Additional observations from a re-analysis of the deposited data

Results flagged for a closer look

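The genotype difference at 6 weeks departed from that at 24 weeks in 34 named genes, in limma's test of the difference itself with p-values adjusted over all 11309 genes. Values here are the log2 difference (NeuT+ minus NeuT-) at 6 weeks minus that at 24 weeks. Peg3 and lymphoid genes stood with 6 weeks above: Peg3 1.39 (adjusted p = 0.00034), Cd79b 1.82 (adjusted p = 0.000199), Ebf1 1.46 (adjusted p = 0.000227), Rag1 1.73 (adjusted p = 0.00478), Il7r 1.36 (adjusted p = 0.00301), Tcf4 0.77 (adjusted p = 5.3e-05), Irf4 1.58 (adjusted p = 0.00131) and Sox4 1.78 (adjusted p = 0.000105). Among bone matrix genes these were Bglap 2.97 (adjusted p = 0.00308) and Col1a1 2.79 (adjusted p = 0.00901). The others with 6 weeks above were Trp53i11 1.27 (adjusted p = 0.000743), Aurkc 1.15 (adjusted p = 0.00231), Igf2bp3 0.83 (adjusted p = 0.0272), Mex3a 0.95 (adjusted p = 0.00029), Slc27a1 0.55 (adjusted p = 0.00777), Egr1 0.85 (adjusted p = 0.0341), Klk1b5 0.70 (adjusted p = 0.0458), Klk1b26 0.85 (adjusted p = 0.0438), Klk1b27 0.78 (adjusted p = 0.0282), Cd74 0.61 (adjusted p = 0.0189), Nuak1 1.90 (adjusted p = 5.88e-05), Dph2 0.45 (adjusted p = 0.00588), Traf3ip2 1.34 (adjusted p = 5.12e-05), Apbb1 1.66 (adjusted p = 5.88e-05) and Fam189a1 0.76 (adjusted p = 0.00221).

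Myeloid and interferon genes stood with 6 weeks below: Il1r2 -1.39 (adjusted p = 0.00128), Cd163 -1.44 (adjusted p = 0.0222), Padi4 -0.73 (adjusted p = 0.0212), Irf7 -1.003 (adjusted p = 0.00896) and Isg15 -1.16 (adjusted p = 0.00563). The others with 6 weeks below were Tbc1d9 -0.58 (adjusted p = 0.0199), Gyg -0.85 (adjusted p = 0.000584), Nrg4 -0.52 (adjusted p = 0.0251) and Igf2r -0.44 (adjusted p = 0.0212). A positive value for the kallikreins means that their NeuT+ level lay further below NeuT- at 24 weeks than at 6 weeks.

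One mouse stood apart from the other 8 of its group in 4 of 200 groups of 9 values checked, and chance sets apart about 1 in 20. NeuT+ replicate 1 had a Cxcl12 level of 10.02, against 11.08 to 11.87 in the other NeuT+ mice. NeuT- replicate 4 had a Zfp787 level of 10.11, against 10.64 to 10.73, and a Top2a level of 13.34, against 12.70 to 12.88. NeuT- replicate 8 had a Siah1a level of 8.38, against 8.87 to 9.32. NeuT- replicates 4 and 8 are the 2 arrays that stood apart over all genes. The Erbb2 probe, detected in no 6-week mouse, had a mean raw signal of 580 on the reference arrays, which no comparison used.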

How the results depend on the processing

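Peg3 passed under all 33 alternatives tried, with a log2 difference between 4.03 (mean of its detected probes) and 6.24. The count of genes called at 6 weeks, 1, was 3 with every probe as its own feature (all of Peg3), 2 with number series as a random block, 15 with array weights (Peg3, 3 kallikreins and Clec9a among them) and 3 without the 2 arrays that stood apart. Leaving out each mouse in turn it ran from 1 to 2, with a second call without NeuT- replicate 4 (Klk1b5), NeuT- replicate 6 (Clec9a) or NeuT+ replicate 8 (Clec9a). Between 6 and 12 weeks the count was 0 in every other setting and 0 to 1 leaving out each mouse, 1 without NeuT- replicate 4 of 12 weeks. Between 6 and 24 weeks the count of 1117 was 1724 with every probe, 547 with no series block, 440 without series 17 and 264 to 1502 leaving out each mouse. With median scaling it was 835, of which 691 had 6 weeks above. The count over number series, 3265, was 6784 with median scaling, 6468 with every probe, 5406 with array weights and 2676 to 4329 leaving out each mouse. The 264 came without NeuT- replicate 1 of 24 weeks, which also took the NeuT+ mice of its series out of the 24-week contrast. The causes of these shifts were otherwise not tested. Peg3, the 1 gene past the threshold at 6 weeks, kept its sign under every alternative. Signs of the genes called between ages or over number series were not compared gene by gene. Of 100 named genes 34 moved by over 1.5 times or changed sign without the 2 arrays that stood apart, 20 of them with a difference under 0.1. Of 1056 list medians recomputed, 1053 moved by less than the spread between mice. That spread includes differences between number series and is wide, so the count does not show that the medians were stable. Stromal genes ran from 0.006 without series 17 to 0.417 without series 12, and megakaryocyte genes from 0.002 to 0.283 in the same settings. Inflammatory genes ran from 0.022 without series 12 to 0.273 without series 14. None of these shifts counted as moved. B-cell development genes ran from 0.157 to 0.384. Signals of Clec9a, Zim1, Usp29 and Erbb2 lie near background, which limits what can be read from them. No paired analysis was possible because replicate numbers were given in accession order. The number series served as the block in their place.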
